A study of Mus musculus with 7 samples.

Results

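The cytosolic ribosomal protein genes were taken by name from the deposited expression table: protein-coding entries called Rpl or Rps followed by a digit, together with Rpsa, Rplp0, Rplp1 and Rplp2, without pseudogene names and without the Rps6k kinases. Of 55357 genes in the table, 87 met this naming rule, and 84 of them also reached a TPM of at least 1 in at least 3 libraries. TPM, an expression unit scaled to library size, corrects for transcript length and gives every library an equal total. The other 3 were Rpl3l, a muscle paralog of Rpl3 with a highest value of 0.35 TPM, Rps23rg1 with a highest value of 0.09 TPM, and Rpl10l, a germ cell paralog of Rpl10 that was listed at 0 in every library. The 84 genes comprised 77 core proteins of the ribosome (31 of the small and 46 of the large subunit), 6 paralogs (Rpl7l1, Rpl22l1, Rpl36al, Rpl39l, Rps27l and Rps27rt) and Rps19bp1, which the name rule admits although its product binds Rps19 and is not a ribosome component. Fau and Rack1 are among the ribosome components that the name rule leaves out.

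The libraries were poly(A)-selected RNA-seq of CD8 T cells from MCA205 tumours. MCA205 is a transplantable mouse fibrosarcoma line, and the tumour cells had been placed under the skin of the host mice 14 days before live CD45+ CD8+ cells were sorted. One group, ENT1KO, came from Slc29a1-/- hosts (4 libraries, replicates 11, 12, 14 and 15), and the other, WT, from C57Bl/6 hosts (3 libraries, replicates 1, 2 and 3). Slc29a1 encodes ENT1, a facilitative carrier that lets nucleosides such as adenosine enter and leave cells. All hosts carried the same tumour line, and the labels give no genetic change in the tumour cells, no sex or age, and no statement on whether each sample was 1 animal or a pool. The p-values therefore measure only the spread between these samples, which may be technical.

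A ribosome contains 1 copy of nearly every one of these proteins, so cells make them in matched amounts and degrade the surplus. Their mRNAs are among the most abundant in any dividing cell. Most start with a run of pyrimidines, the terminal oligopyrimidine or TOP element, which ties their translation to mTORC1 signalling through the RNA-binding protein Larp1. In T cells, ribosome production rises after antigen recognition, before the first division. The comparison addresses whether the RNA for this machinery differed in tumour-infiltrating CD8 T cells of hosts without ENT1.

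Values of single libraries are given below in the order 11, 12, 14 and 15 for ENT1KO and 1, 2 and 3 for WT. The totals rebuilt from the steps of the normalized counts were 18624318 to 19660792 per library, although for WT replicates 1 and 3 these steps were not accepted as proof of whole reads. Slc29a1, the targeted gene, stood at 13.2 to 17.6 TPM in ENT1KO and 49.7 to 58.9 TPM in WT libraries. T cell identity genes were present in every library, with Cd8a at 858 to 1304 TPM in ENT1KO and 310 to 684 TPM in WT, and Cd3e at 578 to 710.0 and 185 to 448 TPM. The summed level of 16 CD8 T cell markers was 10722 to 13037 TPM in ENT1KO and 3313 to 8099 TPM in WT, and all 16 were called higher in ENT1KO. The 18 fibroblast and tumour cell markers summed to 11.9 to 923 TPM in ENT1KO and 4398 to 8363 TPM in WT, with 4 of the 18 listed at 0 in at least 1 ENT1KO library and none in WT. The 16 macrophage and monocyte markers summed to 310.3 to 1722 TPM and 4174 to 6208 TPM, with none listed at 0. All 17 tested fibroblast markers and all 16 macrophage markers were called lower in ENT1KO. Neutrophil and erythroid markers were also lower (5 of 5 tested genes in each list). Of 5 tested endothelial markers 4 were called lower and 1 higher, and of 6 NK cell markers 2 were called lower and 1 higher. Only 2 of 6 B cell markers were tested. Both were called higher, while the summed B cell level overlapped between the groups. Of all tested genes, 27.5% were called higher and 23.1% lower. In such bulk libraries, fewer cells of a type and less RNA per cell cannot be told apart, and genotype and the content of other cells moved together in all 7 libraries.

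Ribosomal protein transcripts made up a larger part of the mRNA pool in all 4 ENT1KO libraries than in the 3 WT libraries. The 84 genes together held 18.9, 18.5, 17.7 and 19.6% of all TPM in ENT1KO, and 13.0, 12.5 and 16.0% in WT. The group means were 18.7 ± 0.770% (SD, n = 4) and 13.8 ± 1.90% (SD, n = 3), a ratio of 1.35. The smallest gap between the groups lay between ENT1KO replicate 14 and WT replicate 3. Small subunit genes held 8.63 ± 0.332% in ENT1KO and 6.28 ± 0.906% in WT, and large subunit genes 9.93 ± 0.452% and 7.44 ± 0.993%. The ratio of small to large subunit TPM was 0.856 to 0.886 in ENT1KO and 0.832 to 0.853 in WT libraries, and the ratios of ENT1KO to WT were 1.37 for the small and 1.33 for the large subunit. Each value is a share of the library and says nothing of RNA per cell.

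The same shares moved with other contents of the libraries. Transcripts encoded in mitochondrial DNA held 4.52 to 5.85% of TPM in ENT1KO and 8.33 to 13.3% in WT. Within ENT1KO, the ribosomal protein share was highest in replicate 15 and lowest in replicate 14, where the fibroblast and tumour cell markers summed to 11.9 and 923 TPM. Within WT, replicate 3 had the highest ribosomal protein share, the highest CD8 marker sum (8099 TPM) and the lowest fibroblast sum (4398 TPM). Within ENT1KO, the highest CD8 marker sum (13037 TPM) was in replicate 12, whose ribosomal protein share of 18.5% lay below those of replicates 11 and 15. Of the 84 genes, 74 were highest among WT libraries in replicate 3, and 52 were lowest in WT replicate 2. In the authors' deposited normalized counts, which are read counts divided by 1 factor per library without correction for length, the 84 genes held 2.99 ± 0.161% in ENT1KO and 2.50 ± 0.313% in WT, a ratio of 1.19. Relative to the CD8 T cell markers, whose own level was 2.11 times as high in ENT1KO, the direction was the opposite.

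**Figure D1:**
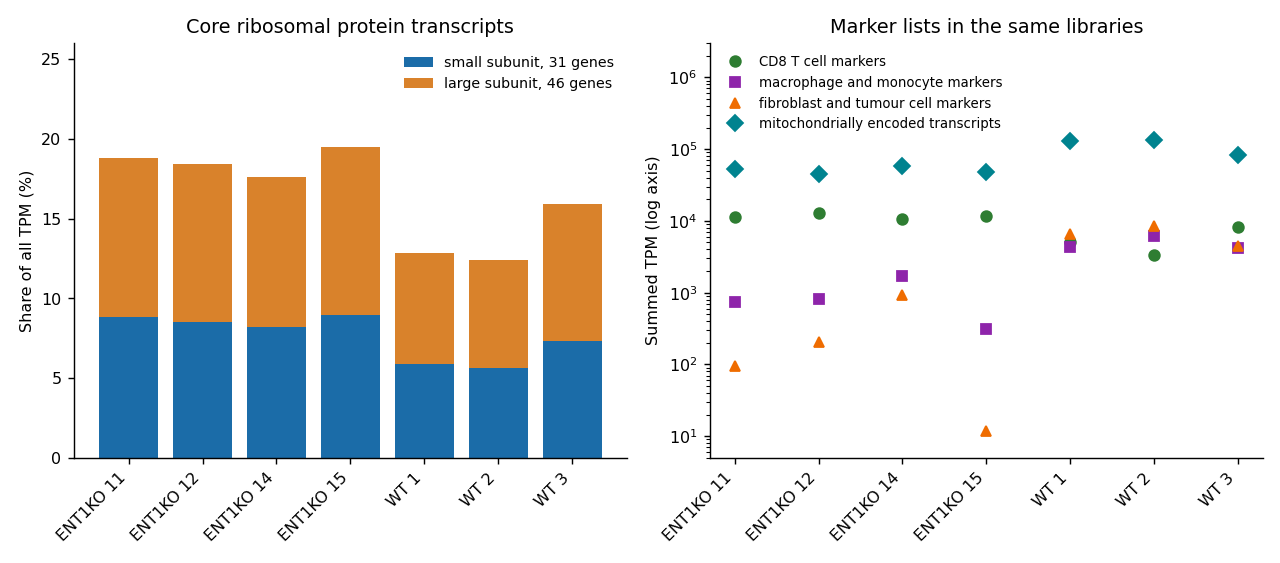
Left, the share of all TPM held by the 31 small and 46 large subunit core genes in each of the 7 libraries, as stacked bars from 0. Right, summed TPM of marker lists and mitochondrially encoded transcripts on a log axis: the ribosomal protein bars of ENT1KO on the left lie above all WT bars, while on the right the mitochondrial, fibroblast and macrophage sums are lower and the CD8 marker sum is 2.11 times as high in ENT1KO, so that per CD8 marker the order on the left turns round.

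Gene by gene, limma-trend on log2(TPM + 1) over the 13798 genes that passed the level filter called 62 of the 84 genes higher and 3 lower in ENT1KO at an adjusted p under 0.05. The backgrounds are large: 27.5% of all tested genes were called higher and 23.1% lower. The median log2 difference of the 84 genes was 0.43, beside 0.15 over all tested genes, so the list lay 0.28 above the general shift, with 79 of the 84 genes above it. All 60 core genes that passed the test rose, and 17 did not pass it. Of the small subunit, 25 of 31 rose (median 0.46), and of the large subunit 35 of 46 rose (median 0.38). In TPM, 66 of the 84 genes did not overlap between the groups with ENT1KO higher and 3 with ENT1KO lower, against backgrounds of 30.3% and 24.9% of all tested genes.

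These counts depended on what the values were set against. On log2(normalized count + 1), 26 genes were called higher and 4 lower (backgrounds 21 and 28%), with a median of 0.27 beside 0 over all tested genes. The authors' deposited table called 28 higher and 4 lower and left 52 uncalled (backgrounds 16.5 and 25.8%), and 27 of its higher calls and 3 of its lower calls were calls of limma on TPM too. After quantile normalization 34 rose and 4 fell (backgrounds 33 and 23%), and the median of 0.21 was close to the 0.17 of all tested genes. When each library was scaled to its CD8 T cell markers the direction flipped: no gene was called higher and 65 were called lower (backgrounds 0.174 and 66%), with a median of -0.75 beside -1.03 over all tested genes. Limma understates p there, because the marker list adds 1 common error to every gene. With the level of either the macrophage or the fibroblast markers as a covariate none of the 84 genes was called, and 3 and 0 of all 13798 genes were. WT replicates 1 and 2 also decided many calls: 36 genes rose without WT replicate 1 (background 23.8%) and 38 without WT replicate 2 (background 16.8%), and 35 of the 62 rises were kept whichever library was left out.

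**Figure D2:**
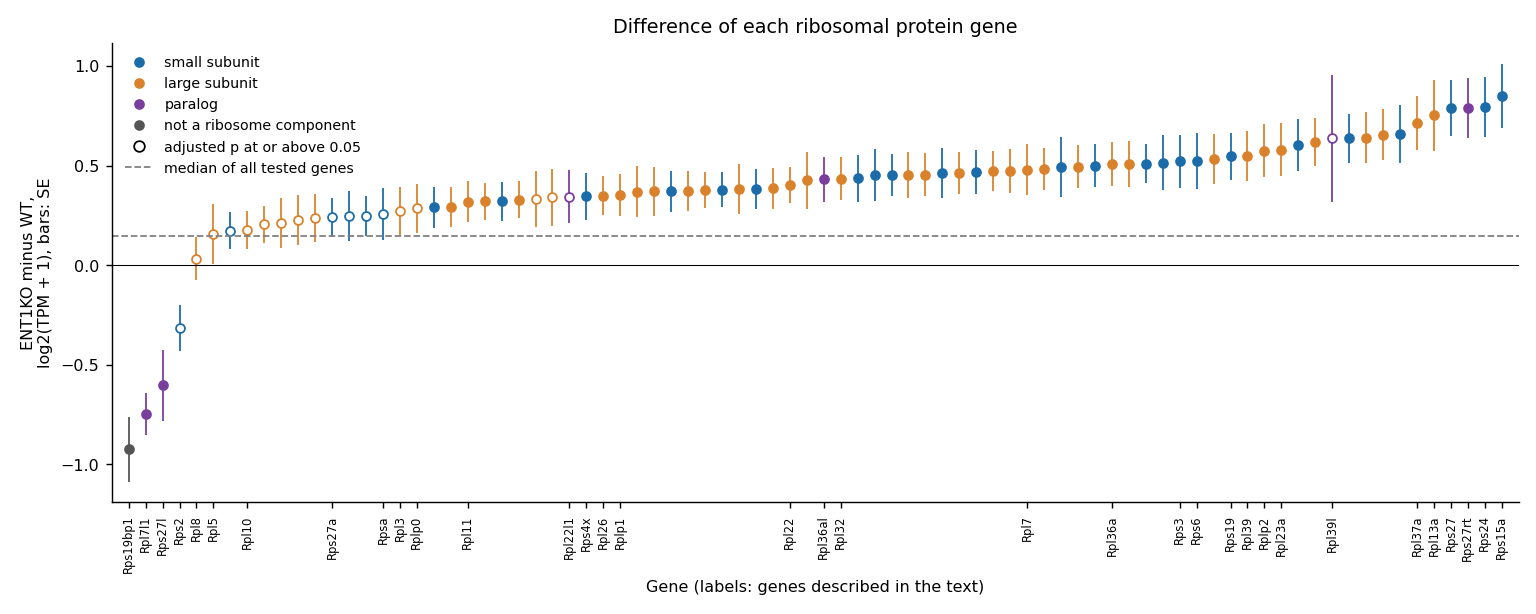
The log2 difference of 82 of the 84 genes (log2(TPM + 1), ENT1KO minus WT), with bars of 1 standard error, sorted from low to high; filled points have a limma adjusted p under 0.05 and the dashed line is the median of all tested genes (0.15). The core genes run from -0.32 (Rps2) to 0.85 (Rps15a), and only Rps2 lies below 0; relative to the CD8 T cell markers every one of these differences is below 0.

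The largest rises were in small subunit genes. Rps15a (ENSMUSG00000008683.17, chromosome 7, 117703595 to 117715411, GRCm39), whose protein binds the RNA of the small subunit, was at 5854, 6182, 4667 and 4555 TPM in ENT1KO and 3099, 2401 and 3352 TPM in WT. The highest WT library lay below the lowest ENT1KO library, and the means of 5314 ± 825 (SD, n = 4) and 2951 ± 493 TPM (SD, n = 3) differed by 0.85 on the log2 scale (SE 0.16, limma adjusted p = 0.00426). Rps24 (ENSMUSG00000025290.18, chromosome 14, 24537193 to 24547027, GRCm39), needed for processing of the ribosomal RNA precursor and mutated in Diamond-Blackfan anaemia, was at 7411, 6879, 6773 and 7447 TPM in ENT1KO and 4126, 3261 and 5141 TPM in WT. Its log2 difference was 0.79 (SE 0.15, limma adjusted p = 0.00424). Rps27 (chromosome 3, 90119829 to 90120958, GRCm39), a zinc-binding protein of the small subunit, was at 6642, 6475, 5581 and 6098 TPM in ENT1KO and 3457, 3031 and 4379 TPM in WT, a log2 difference of 0.79 (SE 0.14, limma adjusted p = 0.00325). None of these 3 genes overlapped between the groups, and each call was kept whichever library was left out. On normalized counts Rps15a and Rps24 were still called higher, at 0.67 and 0.62 (limma adjusted p = 0.00813 and 0.00757), and Rps27 was not, at 0.48 (limma adjusted p = 0.116).

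The 2 largest rises in the large subunit were in Rpl13a and Rpl37a. Rpl13a (ENSMUSG00000074129.15, chromosome 7, 44774982 to 44778185, GRCm39), a surface protein of the large subunit that can also leave the ribosome in interferon-treated myeloid cells, was the most abundant of all 84 genes in TPM. Its levels were 7559, 7859, 6674.5 and 9069 TPM in ENT1KO and 4311, 3708 and 6078 TPM in WT, a log2 difference of 0.75 (SE 0.18, limma adjusted p = 0.0103). The libraries did not overlap, but WT replicate 3 came close to ENT1KO replicate 14. In normalized counts Rpl13a did not differ in this way: the log2 difference there was -0.03 (limma adjusted p = 0.871), and -0.04 in the authors' deposited table (adjusted p = 0.871). Its mean normalized count was 723, below the 51302 of Rpl4, so it was not the most abundant gene on that measure. Rpl37a (chromosome 1, 72750449 to 72752972, GRCm39), a small zinc finger protein, was at 2085, 1976, 1757 and 1846 TPM in ENT1KO and 1120.3, 1000.1 and 1416 TPM in WT. Its log2 difference was 0.71 on TPM (SE 0.14, limma adjusted p = 0.00421) and 0.55 on normalized counts (limma adjusted p = 0.00534).

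The start sites of these genes were compared because most ribosomal protein mRNAs begin with a pyrimidine run and the genes moved together. The sequences below are the 20 bases before and the 20 bases from the annotated start, 5′ to 3′ on the gene's strand, from RefSeq on GRCm38.p6, a different build from that of the gene positions above. Capitals mark a run of at least 8 C or T that begins with C within 10 bases of the start. The first 6 genes rose in ENT1KO, Rps27l and Rpl7l1 fell, and Rps2 was the 1 core gene below 0. These genes are picked examples. For a gene with several annotated starts, a start with such a run is printed where there is any. The examples therefore do not show how runs go with direction.
Rps15a, chr7:118116128-118116167, minus strand: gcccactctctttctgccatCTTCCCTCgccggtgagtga
Rps24, chr14:24490658-24490697, plus strand: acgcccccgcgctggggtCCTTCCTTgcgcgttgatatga
Rps27, chr3:90213629-90213668, minus strand: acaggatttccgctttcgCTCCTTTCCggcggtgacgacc
Rps27rt, chr9:114982720-114982759, minus strand: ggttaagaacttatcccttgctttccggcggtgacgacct
Rpl13a, chr7:45128726-45128765, minus strand: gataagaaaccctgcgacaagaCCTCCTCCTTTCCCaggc
Rps6, chr4:86857348-86857387, minus strand: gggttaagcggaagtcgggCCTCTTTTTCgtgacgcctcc
Rps27l, chr9:66946066-66946105, plus strand: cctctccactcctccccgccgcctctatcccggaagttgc
Rpl7l1, chr17:46782637-46782676, minus strand: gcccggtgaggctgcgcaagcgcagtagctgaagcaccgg
Rps2, chr17:24720043-24720082, plus strand: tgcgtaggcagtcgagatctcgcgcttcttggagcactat

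RefSeq promoters were at hand for 64 of the 84 genes, and 24 of these (37.5%) held such a run at any annotated start. By the same rule the run was in 10.6% of the tested protein-coding genes and 9.43% of all genes with a RefSeq promoter. Among core genes, the run was found in 19 of 44 that rose and in 4 of 13 that were not called. Mitochondrial ribosomal protein genes, whose mRNAs are not counted among TOP mRNAs, held it in 5 of 69. The motif CCGGAAG, a binding sequence of ETS factors and searched on both strands of 300 bases around the start, was in 40.6% of the 64 promoters and 37.7% of the mitochondrial ribosomal protein promoters, against 20.7% of tested protein-coding genes. A match describes only the letters in the window and shows no binding, and an annotated start need not be the one used in these cells.

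**Figure D3:**
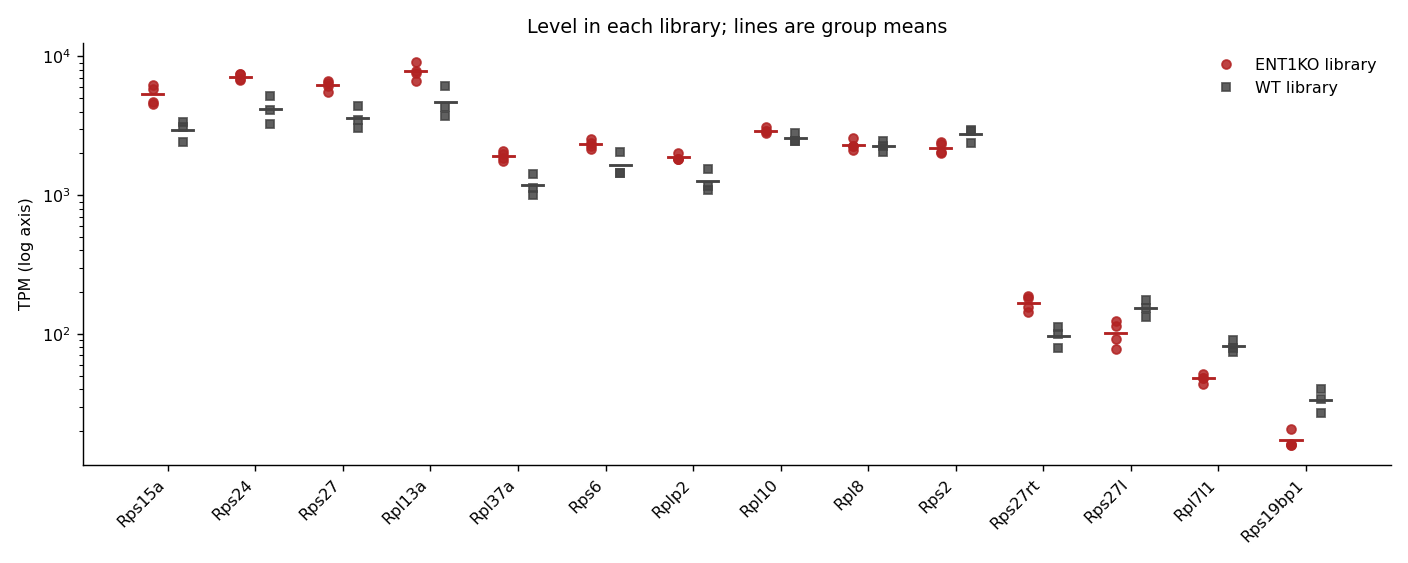
TPM on a log axis of 14 genes in each ENT1KO (red circles) and WT (grey squares) library, with group means as lines. Rps15a, Rps24, Rps27, Rpl13a, Rpl37a, Rps6, Rplp2 and Rps27rt are higher in all 4 ENT1KO libraries, Rps27l, Rpl7l1 and Rps19bp1 are lower in all 4, and Rpl10, Rpl8 and Rps2 overlap between the groups. Relative to the CD8 T cell markers all 14 differences are negative. Those of Rps15a, Rps24, Rps27, Rpl13a, Rpl37a, Rplp2 and Rps27rt were not called there.

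Among small subunit genes chosen by role, Rps6, Rps3 and Rps19 rose. Rps6, the substrate of the S6 kinases downstream of mTORC1, was at 2394, 2257, 2153 and 2529 TPM in ENT1KO and 1455, 1439 and 2036 TPM in WT (log2 difference 0.52, limma adjusted p = 0.0168), but its call was lost without WT replicate 1 and without WT replicate 2. Rps3, which lines the mRNA entry channel, was at 2801, 2618, 2614 and 2883 TPM against 1752, 1662 and 2354 TPM (log2 difference 0.52, limma adjusted p = 0.0135), and its call was lost without WT replicate 1. Rps19, the gene most often mutated in human Diamond-Blackfan anaemia, was at 1997, 1757, 1952 and 2195 TPM against 1278, 1253 and 1527 TPM (log2 difference 0.55, limma adjusted p = 0.00658). In all 3 the ENT1KO libraries lay above the WT libraries, and on normalized counts Rps6 and Rps19 were called higher too (limma adjusted p = 0.0211 and 0.0291) and Rps3 was not (limma adjusted p = 0.0622). Of the 50-base words in the transcripts of Rps6, only 15.4% were unique to the gene. The mean normalized count of Rps6 was 141, so its reads may be divided among copies. Rps4x, an X-linked gene, rose by 0.35 on the log2 scale (limma adjusted p = 0.0389), a call that held only without WT replicate 3, was lost without each other library and was absent on normalized counts (limma adjusted p = 0.297).

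Other small subunit genes did not pass the test. Rpsa, which is also known as the laminin receptor precursor and is needed for late maturation of the small subunit, was at 4106, 4156, 4123 and 4792 TPM in ENT1KO and 3249.96, 3249 and 4354 TPM in WT. WT replicate 3 lay inside the ENT1KO range, and the log2 difference was 0.26 (limma adjusted p = 0.131). Rps27a, made as a fusion with ubiquitin, was at 1993 to 2243 TPM in ENT1KO and 1689 to 1989.96 TPM in WT (log2 difference 0.24, limma adjusted p = 0.0755).

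Rps2 was the exception within the core. Its protein lies at the mRNA entry channel and is a substrate of the arginine methyltransferase Prmt3. The gene (ENSMUSG00000044533.16, chromosome 17, 24937090 to 24940903, GRCm39) was at 2038, 2016, 2318 and 2414 TPM in ENT1KO and 2394, 2938 and 2879.6 TPM in WT. WT replicate 1 lay within the ENT1KO range. The log2 difference was -0.32 (SE 0.12, limma adjusted p = 0.0529), which did not pass the test on TPM, while on normalized counts it was -0.49 (limma adjusted p = 0.0238) and in the authors' deposited table -0.50 (adjusted p = 0.00574). Without WT replicate 1 the TPM difference passed the test, as it did with protein-coding genes only, at -0.36. Rps2 has many near-copies, with 43.6% of its 50-base words unique to the gene and words shared with 71 other annotated genes, so reads may be divided among them.

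The large subunit genes of the stalk, which recruits elongation factors, differed in whether they passed the test. Rplp2 was at 1815, 1821, 1826 and 2013 TPM in ENT1KO and 1156, 1096 and 1551 TPM in WT, a log2 difference of 0.58 (limma adjusted p = 0.00919). Rplp1 was at 3322, 2868, 3193 and 3274 TPM against 2314, 2361 and 2771 TPM, a log2 difference of 0.35 (limma adjusted p = 0.0247). Rplp0, the base of the stalk that anchors both, was at 2448 to 2915.5 TPM against 1939 to 2509.6 TPM, a log2 difference of 0.29 that did not pass the test (limma adjusted p = 0.0815). The call for Rplp1 was lost without ENT1KO replicate 11, 14 or 15 or WT replicate 1 or 2, and on normalized counts (limma adjusted p = 0.148). The 3 differences were not tested against each other.

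Rpl5 and Rpl11 form, with the small 5S RNA, the particle that binds Mdm2 when ribosome assembly fails. Rpl11 was at 2070.0, 2048, 1907 and 2213 TPM in ENT1KO and 1576, 1541 and 1844 TPM in WT, a log2 difference of 0.32 (limma adjusted p = 0.0337) whose call was lost without ENT1KO replicate 11, 12 or 15 or WT replicate 1 or 2, and on normalized counts (limma adjusted p = 0.183). In TPM Rpl5 was the lowest of the core genes, at 81.7, 69.1, 76.0 and 70.7 TPM against 81.95, 67.5 and 52.9 TPM, with overlapping groups and a log2 difference of 0.16 (limma adjusted p = 0.400). On normalized counts Rpl5 stood at -0.28 (limma adjusted p = 0.238), so its sign depended on the measure. Its mean normalized count of 682 lay above the 167 of Rpl11, so its rank by level depended on the measure too.

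Rpl8, near the peptidyl transferase centre, and Rpl10, which joins at a last cytoplasmic step of large subunit maturation, had small differences in TPM. Rpl8 was at 2278, 2133, 2245 and 2571 TPM in ENT1KO and 2044, 2249 and 2474 TPM in WT, a log2 difference of 0.03 (SE 0.11, limma adjusted p = 0.812). Rpl10 was at 2878, 2792, 2882 and 3088 TPM against 2469, 2462 and 2800.3 TPM, a log2 difference of 0.18 (limma adjusted p = 0.145), although the normalized counts gave 0.36 (limma adjusted p = 0.0166). Of the other abundant large subunit genes, Rpl23a rose by 0.58 (4942 ± 239 against 3342 ± 647 TPM, limma adjusted p = 0.00912) and Rpl32 by 0.43 (3791 ± 182 against 2817 ± 355 TPM, limma adjusted p = 0.0123). On normalized counts neither was called, with limma adjusted p of 0.0518 for Rpl23a and 0.0766 for Rpl32. Only 17.4% of the 50-base words of Rpl23a were unique to it and its mean normalized count was 194, so its reads may be divided among copies.

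The paralogs split in direction. Rps27rt, an intron-poor copy of Rps27 (chromosome 9, 114811434 to 114811807, GRCm39), was at 157, 181, 187 and 144 TPM in ENT1KO and 78.8, 112 and 100.02 TPM in WT (log2 difference 0.79, SE 0.15, limma adjusted p = 0.00412). Only 8.92% of its 50-base words were unique and its mean normalized count was 17.1, so reads may be divided among its copies, Rps27 included. Rps27l, a paralog of Rps27 induced by p53 (chromosome 9, 66853368 to 66856798, GRCm39), went the other way, at 91.7, 114, 124 and 77.55 TPM in ENT1KO and 153, 175 and 133 TPM in WT (log2 difference -0.60, SE 0.18, limma adjusted p = 0.0233). That call was lost without ENT1KO replicate 11, WT replicate 1 or WT replicate 2, and the authors' deposited table gave -0.75 (adjusted p = 0.00261). In TPM, Rps27 and its paralog Rps27l thus differed in opposite directions in the same libraries, although the Rps27 rise was not called on normalized counts (limma adjusted p = 0.116). Relative to the CD8 markers Rps27l was called lower, at -1.78, and Rps27 stood at -0.39 without a call (limma adjusted p = 0.213).

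Rpl7l1, a paralog of Rpl7 that takes part in early large subunit assembly (chromosome 17, 47084833 to 47093598, GRCm39), was at 48.6, 51.8, 47.9 and 44.0 TPM in ENT1KO and 74.3, 90.8 and 79.3 TPM in WT. The groups lay far apart, with a log2 difference of -0.75 (SE 0.11, limma adjusted p = 0.00167). Rpl7 itself rose by 0.48 (2296 ± 87.3 against 1662 ± 298 TPM, limma adjusted p = 0.0150), a call lost without WT replicate 1 or WT replicate 2 and on normalized counts (limma adjusted p = 0.0674). Rps19bp1, which binds Rps19 and the deacetylase Sirt1 (chromosome 15, 80144816 to 80148516, GRCm39), was at 16.2, 15.7, 20.8 and 15.9 TPM in ENT1KO and 26.9, 40.3 and 34.0 TPM in WT, a log2 difference of -0.92 (SE 0.16, limma adjusted p = 0.00319). Rpl7l1 and Rps19bp1 were called lower under every alternative run, with -0.81 and -1.14 on normalized counts, except the fits with a marker covariate, where they stood at -0.56 to -0.49 without a call.

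Rpl22, an RNA-binding protein required for development of alpha-beta T cells, and its paralog Rpl22l1 both had differences above 0. Rpl22 was at 1341, 1367, 1328 and 1302 TPM in ENT1KO and 1004, 936 and 1094 TPM in WT (log2 difference 0.40, limma adjusted p = 0.00849). Rpl22l1 was at 405, 334, 341 and 392 TPM against 345, 261 and 268 TPM (log2 difference 0.34, limma adjusted p = 0.0611), with WT replicate 1 inside the ENT1KO range. On normalized counts neither was called (limma adjusted p = 0.154 and 0.0675). Rpl36a and Rpl36al rose by 0.51 and 0.43 (limma adjusted p = 0.00724 and 0.0147), although the call for Rpl36al was lost without WT replicate 1 or 2 and the normalized count difference of Rpl36a was -0.21 (limma adjusted p = 0.458). Rpl39 rose by 0.55 (limma adjusted p = 0.00815), while its germ cell paralog Rpl39l stayed near the level filter at 0.73 to 3.04 TPM in ENT1KO and 0.40 to 1.05 TPM in WT (limma adjusted p = 0.126). Rpl3 did not pass the test (log2 difference 0.27, limma adjusted p = 0.0892), and Rpl26, a regulator of p53 translation, rose by 0.35 (limma adjusted p = 0.0200), a call that ended on normalized counts (limma adjusted p = 0.107) and when WT replicate 1, WT replicate 2 or ENT1KO replicate 11 was left out.

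Dividing each gene by the summed TPM of all 84 in its library removes the common level and shows how the members shifted among themselves. Of the 84 shares, 10 were higher and 20 lower in all ENT1KO than in all WT libraries, and 54 overlapped. The same division left 8.65% of all tested genes higher and 40% lower without overlap. Rps2 had the lowest ratio among core genes, from 1.997 ± 0.306% of the pool in WT to 1.18 ± 0.112% in ENT1KO, a ratio of 0.589. Rpl8 went from 1.64 ± 0.138% to 1.23 ± 0.0703%. At the other end, Rps24 held 3.81 ± 0.0848% in ENT1KO and 2.999 ± 0.339% in WT, and Rps27 3.32 ± 0.217% and 2.61 ± 0.163%. Rps15a had the highest ratio of the core genes, 1.33. The core shares thus lay between 0.589 and 1.33 times their WT level, and most overlapped between the groups.

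**Figure D4:**
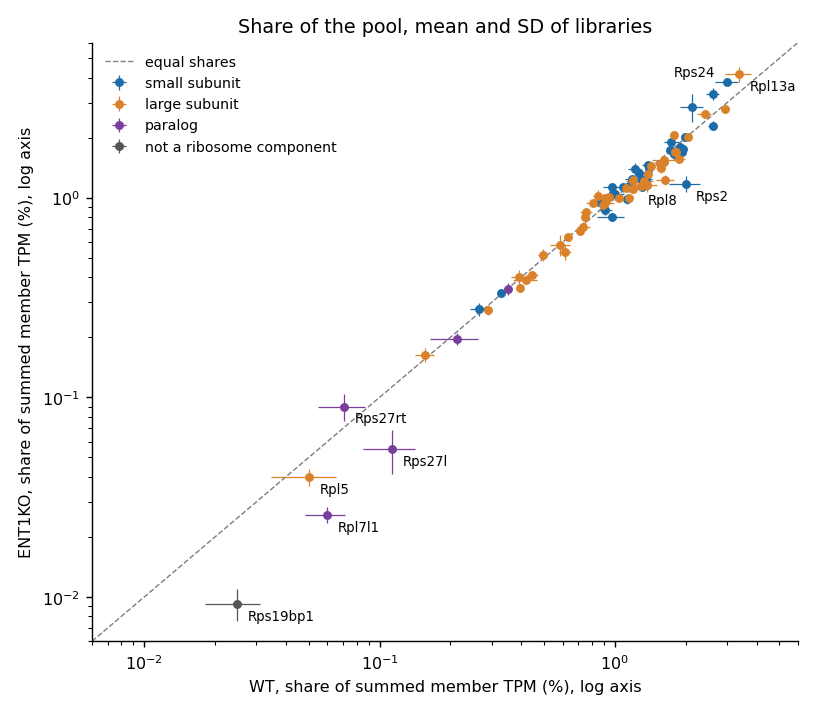
Share of the summed TPM of the 84 genes held by each gene, in percent on log axes, WT mean against ENT1KO mean with bars of 1 SD over 3 and 4 libraries (Rpl39l lies below the plotted range). Most genes lie along the line of equal shares, with Rps2, Rpl8, Rps27l, Rpl7l1 and Rps19bp1 below it and Rps24 and Rpl13a above it.

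The 2 deposited measures did not carry equal information on these genes. Ribosomal protein genes have many processed copies in the genome, and a read that fits several places can be shared out by an estimate or dropped. For the 84 genes the median was 3.21 normalized counts per TPM and kilobase of transcript, beside 13.3 for mitochondrial ribosomal protein genes, and 18 of the 84 were under 1, beside 1 of 78. A median of 65.2% of the 50-base words in a member's transcripts was unique to the gene, beside 99.9% for mitochondrial ribosomal proteins. Across the 84 genes, which share libraries and are not independent, Spearman's rho between the 2 quantities was 0.47. Rps27 had 0.0823 normalized counts per TPM and kilobase, Rps6 0.0788 and Rps29 0.0791, while Rps3 had 12.7.

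The 66 genes with at least 1 normalized count per TPM and kilobase had median log2 differences of 0.39 on TPM and 0.28 on normalized counts, and 24 of them were called higher on normalized counts. The other 18 had medians of 0.46 and 0.26, and 2 were called higher. TPM exceeded normalized counts by a median of 0.16 both in the 84 genes and in all tested genes. The sign differed for 7 genes, and for 5 of these (Rpl13a, Rpl15, Rpl27, Rpl31 and Rpl36a) the gene was called higher on TPM while the normalized count difference was below 0. Pseudogenes named after ribosomal proteins held 1.87 ± 0.0342% of TPM in ENT1KO and 1.40 ± 0.189% in WT, a ratio of 1.34 that was near the 1.35 of the 84 genes.

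**Figure D5:**
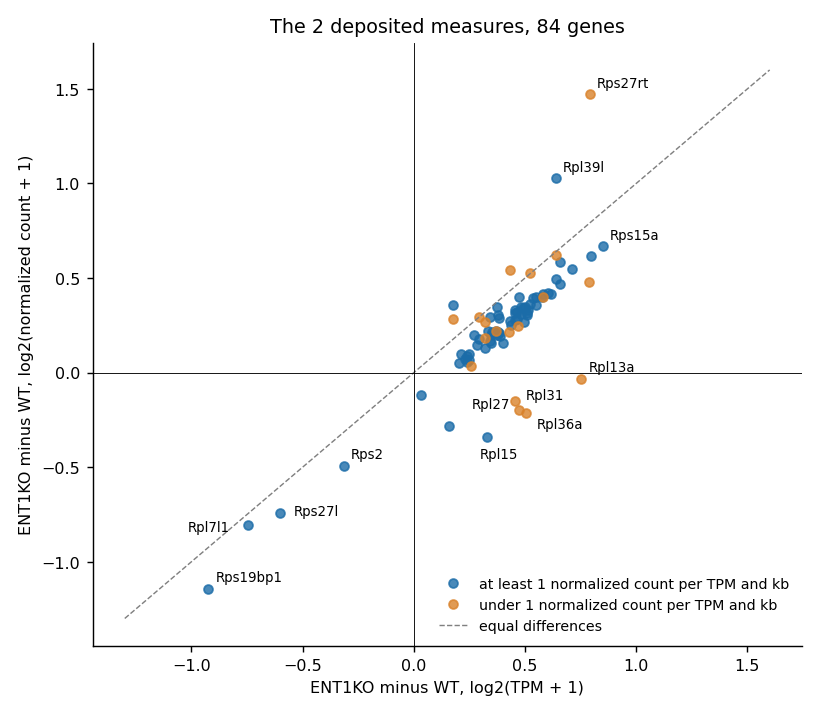
Log2 difference, ENT1KO minus WT, of each of the 84 genes on log2(TPM + 1) (x axis) and on log2(normalized count + 1) (y axis), with orange points for the 18 genes under 1 normalized count per TPM and kilobase. Most points run below and parallel to the line of equal differences, and Rpl13a, Rpl15, Rpl27, Rpl31 and Rpl36a lie to the right of 0 and below it.

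Genes that work with the ribosome were followed through lists, whose counts stand against the same backgrounds of 27.5% higher and 23.1% lower. Of 3 ribosome components outside the naming rule, Fau, made as a fusion with a ubiquitin-like protein, rose (2255 ± 222 against 1634 ± 298 TPM, log2 difference 0.47, limma adjusted p = 0.0235), and the other two did not pass the test. Of 14 elongation factors and other TOP mRNAs, 3 rose and none fell, with a list median of 0.14 beside 0.15 over all tested genes. Those that rose were Tpt1, the translationally controlled tumour protein (0.48, limma adjusted p = 0.00888), Eef1b2, an exchange factor subunit (0.41, limma adjusted p = 0.0220), and Eif3f (0.50, limma adjusted p = 0.0311). Eef1a1, which delivers tRNAs and was at 13090.03 ± 766 against 10517 ± 1683 TPM, did not pass (0.33, limma adjusted p = 0.0536), nor did the translocase Eef2 (0.30, limma adjusted p = 0.0908). The summed share of the 14 genes was 2.88 ± 0.153% of TPM in ENT1KO and 2.36 ± 0.296% in WT, a ratio of 1.22, and the libraries did not overlap.

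Of 30 initiation factor genes, 7 rose and 6 fell (median -0.05), against the 27.5 and 23.1% of all tested genes. Eif4a2, a helicase paralog, rose from 265 ± 73.6 to 542 ± 121 TPM (limma adjusted p = 0.00607). Eif4e, the cap-binding protein, fell from 180.4 ± 11.3 to 125 ± 8.98 TPM (limma adjusted p = 0.00408), Eif3b fell by 0.51 (limma adjusted p = 0.00745) and Eif2b3 by 0.53 (limma adjusted p = 0.00979). Eif6, which keeps unfinished large subunits from joining small ones, fell by 0.44 (limma adjusted p = 0.0256). Of 13 mTORC1 and TOP regulators, 4 rose and 3 fell, against the same backgrounds. Eif4ebp1, the translation repressor that mTORC1 inactivates, fell most, at 5.93, 9.11, 15.6 and 8.79 TPM in ENT1KO and 46.4, 67.1 and 39.8 TPM in WT (log2 difference -2.30, limma adjusted p = 0.00142), and its paralog Eif4ebp2 rose by 0.63 (limma adjusted p = 0.00728). Larp1 rose by 0.38 (limma adjusted p = 0.0146), Akt1s1 fell by 0.74 (limma adjusted p = 0.00587) and Tsc2 fell by 0.33 (limma adjusted p = 0.0194).

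Of 10 ribosome rescue and quality control genes, 5 rose and none fell (median 0.37), among them Gtpbp2, a rescue GTPase (130.0 ± 12.2 against 59.3 ± 14.3 TPM, limma adjusted p = 0.00200), and Nemf, which marks stalled peptides (55.0 ± 9.001 against 27.6 ± 8.27 TPM, limma adjusted p = 0.00518). Of 6 genes listed under ribosomal protein surveillance, 3 rose: Mdm4 (97.1 ± 18.2 against 39.1 ± 14.9 TPM, limma adjusted p = 0.00404), Mdm2 (66.0 ± 5.05 against 48.8 ± 6.67 TPM, limma adjusted p = 0.0165) and Nle1 (limma adjusted p = 0.0351). The 78 mitochondrial ribosomal protein genes, all of which passed the level filter, had 5 that rose, 16 that fell and a median of -0.07, and their summed share of TPM was 0.365 ± 0.0179% in ENT1KO and 0.3803 ± 0.0129% in WT. The difference between the 2 sets was not tested. On normalized counts (backgrounds 21 and 28%) the calls were 0 higher and 0 lower among the TOP list and the 3 other components, 2 and 12 among initiation factors, 3 and 3 among mTORC1 regulators, 5 and 0 among rescue genes, 2 and 0 among surveillance genes, and 3 and 28 among mitochondrial ribosomal proteins. Relative to the CD8 markers none of their genes was called higher.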

How the data were processed

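The authors deposited a table of TPM for 55357 genes and a comparison table. Its sample columns hold a normalized count, a signal made by dividing read counts by 1 size factor per library, as the deposited steps show (every value was a whole multiple of the column's step within 0.01). The authors also deposited log2 fold changes and their test statistic, which is a score. Raw and adjusted p-values stand beside these in the deposited table. Per the submitters' processing notes, the build was GRCm39 and the tools included DESeq2 1.30.1, DESeq, RSEM, STAR 2.7.1a and 2 releases of Trimmomatic (0.35, 0.38), with no role stated. Annotation release, filters: not given in the sources used here. Libraries came from 75 ng of RNA, at least 30000 cells per condition, per the labels.

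Genes with at least 1 TPM in 3 libraries (13798) were tested with limma-trend and robust empirical Bayes on log2(TPM + 1), genotype as the only term, Benjamini-Hochberg adjustment over all tested genes and calls under 0.05 (limma 3.58.1, R 4.3.3). The pseudocount of 1 understates changes of low genes. No count test was run, since the unit check did not accept the steps of WT replicates 1 and 3 as proof of whole reads. Unique 50-base words and transcript lengths came from GENCODE transcripts of an earlier build. The steps were tested on simulated data. Figures used matplotlib 3.10.9.

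Named genes were the 6 highest and 6 lowest log2 differences, the 4 most abundant of each subunit, members chosen by role, paralog pairs, and members called against the majority; other genes are examples. A few genes are not reported here and still count in every total. Of each other list, the most abundant genes and up to 3 called against the majority could be named. The members, lists and rules were chosen with earlier results of these data known, and nothing here counts as independent support. Alternatives were pseudocounts of 0.1 and 5, 2 other filters, quantile normalization, normalized counts, protein-coding genes only, array weights, scaling to the CD8 markers, 2 marker covariates and leaving out each library; the core set and the authors' adjusted p for other counts were added after the data were seen.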

Additional observations from a re-analysis of the deposited data

Results flagged for a closer look

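In 3 genes 1 of the 4 ENT1KO libraries stood apart from the other three, judged by the gap to its nearest neighbour as a fraction of the group's range. Of 38 groups of 4 tested, chance alone flags about 1 in 20. For Rplp2 the fraction was 0.947, with replicate 15 at 2013 TPM and the others at 1815 to 1826 TPM. For Rpsa it was 0.926, with replicate 15 at 4792 TPM and the others at 4106 to 4156 TPM. For Rps19bp1 it was 0.908, with replicate 14 at 20.8 TPM and the others at 15.7 to 16.2 TPM. Replicates 15 and 14 had the lowest and highest fibroblast and tumour cell marker sums of the ENT1KO libraries (11.9 and 923 TPM), and the part of those cells in these values was not tested. The Rplp2 and Rps19bp1 calls were kept whichever library was left out.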

How the results depend on the processing

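No paired analysis was possible because the groups share no replicate number. Pseudocounts, both other filters, array weights and a restriction to protein-coding genes kept the counts of genes and the median within 1.5 times. The other settings moved some of them, except leaving out a library other than WT replicate 1 or 2. Leaving out each library gave medians of 0.36 (without WT replicate 2) to 0.52 (without WT replicate 3). The genes called higher numbered 34 after quantile normalization, 26 on normalized counts, 28 in the authors' deposited table, and 0 relative to the CD8 T cell markers or with the macrophage or fibroblast marker covariate. Leaving out each library gave 36 (without WT replicate 1) to 73 (without WT replicate 3). The genes called lower numbered 65 relative to the CD8 markers and 0 with either covariate. In the core set, the main fit called 0 lower. Quantile normalization, normalized counts and protein-coding genes only each called 1 core gene lower, and scaling to the CD8 markers 60. With the macrophage and fibroblast covariates 3 and 0 of all tested genes were called at all, genotype and marker level having moved together. The median log2 difference was 0.21 after quantile normalization, 0.27 on normalized counts and in the authors' deposited table, 0.25 and 0.23 with the macrophage and fibroblast covariates, and -0.75 relative to the CD8 markers. The log2 ratio of the summed share was 0.43 on TPM and 0.26 on normalized counts.

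Relative to the CD8 markers the sign turned for 30 named genes: -0.33 for Rps15a, -0.38 for Rps24, -0.39 for Rps27rt and Rps27, -0.43 for Rpl13a, -0.47 for Rpl37a, -0.54 for Rpl39l, -0.60 for Rpl23a and Rplp2, -0.63 for Rpl39 and Rps19, -0.66 for Rps6 and Rps3, -0.67 for Rpl36a, -0.70 for Rpl7, -0.74 for Rpl32, -0.75 for Rpl36al, -0.78 for Rpl22, -0.83 for Rplp1, Rpl26 and Rps4x, -0.84 for Rpl22l1, -0.86 for Rpl11, -0.89 for Rplp0, -0.91 for Rpl3, -0.92 for Rpsa, -0.94 for Rps27a, -1.001 for Rpl10, -1.02 for Rpl5 and -1.15 for Rpl8. This follows from the scaling, since the markers themselves rose more than any of these genes. On normalized counts it turned for Rpl13a (-0.032), Rpl8 (-0.12), Rpl36a (-0.21) and Rpl5 (-0.28). With the macrophage covariate it turned for Rps27l (0.15), Rplp0 (-0.013), Rpl3 (-0.014), Rpsa (-0.036) and Rpl8 (-0.19), and with the fibroblast covariate for Rps27l (0.24), Rpl3 (-0.032), Rpsa (-0.046), Rplp0 (-0.061) and Rpl8 (-0.21). Rpl8 also turned after quantile normalization (-0.10) and among protein-coding genes alone (-0.016). For it, leaving out each library gave -0.035 (without WT replicate 1) to 0.10 (without WT replicate 3), with -0.02 without ENT1KO replicate 15. Rpl5 turned with array weights (-0.0053), and leaving out each library gave -0.0030 (without WT replicate 3) to 0.31 (without WT replicate 1). Apart from these constructions, the cause was not tested.

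With 4 libraries against 3, the exact permutation test over the 35 splits cannot give less than 0.0286.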
